A study of Mus musculus with 3 samples.

Results

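The cells described here were the largest of the 6 clusters in the deposited D6 library of mouse paraxial mesoderm (PM) differentiation. Its members were the cells whose cluster code in the count table was 1, which were 2539 of the 5954 cells of that library (42.6%, exact binomial interval 41.4 to 43.9%) among the 15827 cells of the series. The file gave the clusters no names. The label endoderm-like came together with the markers Rbp4, Krt18, Sox17 and Trh, so high levels of these markers are no independent check of it. Longer lists were read beside them. The series held 3 single-cell RNA-seq libraries, 1 for each group: the D6 culture, a D10 tenocyte culture, and E14.5 embryonic tail. The cultures used mouse embryonic stem cells derived from ScxGFP reporter blastocysts, of which the study had several lines, and the line behind each library is not given in the sources used here. The cells were kept on mouse embryonic fibroblast feeders before differentiation. Cells aggregated as embryoid bodies in the BMP inhibitor LDN-193189 from D0, and the WNT agonist CHIR was added with it from D2 to D6. The D10 culture then had TGFβ1, the hedgehog agonist SAG and FGF2 from D6. With 1 library in each group and cells that are not replicates, no difference was tested. Every interval below covers counting error alone, at 95%. The deposited clusters were built from the same genes, so the levels describe the cluster and are not evidence for it.

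Definitive endoderm arises from epiblast cells that pass through the anterior primitive streak under high Nodal signalling, and it becomes the epithelial lining of the gut and its organs. Sox17, the forkhead factors Foxa1 and Foxa2, and Gata4 and Gata6 act in its specification, while keratins 8 and 18, Epcam and claudins are parts of its epithelial structure. Extraembryonic visceral endoderm shares many of these factors and is told apart by serum proteins such as Ttr and Afp. In a paraxial mesoderm protocol endoderm is an alternative fate of the same streak-like progenitors.

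The 2539 cells held 18172321 UMIs (unique molecular identifiers, counted transcripts), with a median of 7406 per cell and a range of 652 to 23943. The other 3415 cells had a median of 9314 UMIs. The median mitochondrial share was 2.21% in cluster 1 and 1.96% in the other cells. A doublet caller marked 6 cells of cluster 1 (0.236%) and 75 of the other cells (2.20%). Of the barcodes of the D6 library, 10 also occurred in the D10 library, 5 of them in cluster 1, and 3 in the tail library, 1 of them in cluster 1.

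All 4 markers were higher in cluster 1 than in the other cells combined, and for each of them cluster 3 was the other cluster with a high level. Levels are CPM, the UMIs of a gene summed over a cluster and divided by all UMIs of the cluster, scaled to 1000000, and they were set side by side only within a gene. Krt18, an intermediate filament keratin of simple epithelia, stood at 2475 CPM in cluster 1 and at 214, 1869, 117, 60.2 and 158 CPM in clusters 2 to 6. Sox17, a transcription factor required for endoderm, stood at 519 CPM in cluster 1 and at 24.5, 531, 23.5, 12.9 and 175 CPM in clusters 2 to 6. Trh, which encodes the precursor of thyrotropin-releasing hormone and is transcribed in early definitive endoderm, stood at 929 CPM in cluster 1 and at 79.6, 938, 37.5, 8.99 and 29.0 CPM in clusters 2 to 6. Cluster 6, the remaining cluster with Sox17 above 100 CPM, also had the endothelial receptor Kdr at 451 CPM and embryonic alpha globin Hba-x, whereas Kdr stood at 0.605 CPM in cluster 1. Rbp4, the secreted carrier of retinol in plasma, stood at 363 CPM in cluster 1 and at 18.7, 193, 12.2, 48.3 and 21.6 CPM in clusters 2 to 6. Rbp4 was thus the marker that differed most between clusters 1 and 3, by 1.88-fold (interval 1.78 to 1.99), and Krt18 differed by 1.32-fold. Over all other cells together the ratios were 5.82 for Rbp4 (5.54 to 6.12), 4.57 for Krt18, 3.70 for Trh and 3.57 for Sox17.

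The promoters of Rbp4, Trh and Krt18 are shown because these genes mark the cells and were high in the same clusters. The promoter of Sox17 is not shown. Each is the 250 bases before a RefSeq start site in GRCm38.p6, written 5′ to 3′ on the strand of the gene. RefSeq placed 2 start sites for Rbp4, with windows at chr19:38125322-38125571 and chr19:38124812-38125061, both on the minus strand. The window of Trh was chr6:92244651-92244900 on the minus strand and that of Krt18 chr15:102027966-102028215 on the plus strand. Capitals mark a match to TGTTTAC or its reverse complement GTAAACA, letters bound by FOXA factors.
Rbp4 distal start: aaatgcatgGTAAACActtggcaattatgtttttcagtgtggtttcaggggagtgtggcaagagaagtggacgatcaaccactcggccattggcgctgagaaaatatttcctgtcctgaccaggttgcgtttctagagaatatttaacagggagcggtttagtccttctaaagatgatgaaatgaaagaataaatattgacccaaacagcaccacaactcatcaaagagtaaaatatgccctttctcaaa
Rbp4 proximal start: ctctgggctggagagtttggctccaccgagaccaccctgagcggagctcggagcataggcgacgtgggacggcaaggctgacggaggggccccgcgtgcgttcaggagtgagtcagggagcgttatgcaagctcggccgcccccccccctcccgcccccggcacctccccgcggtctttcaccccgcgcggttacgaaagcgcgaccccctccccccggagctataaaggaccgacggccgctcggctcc
Trh: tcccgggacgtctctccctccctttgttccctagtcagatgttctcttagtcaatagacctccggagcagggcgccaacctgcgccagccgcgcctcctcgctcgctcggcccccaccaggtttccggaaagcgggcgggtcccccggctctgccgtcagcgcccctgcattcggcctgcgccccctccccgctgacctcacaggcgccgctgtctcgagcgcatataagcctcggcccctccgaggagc
Krt18: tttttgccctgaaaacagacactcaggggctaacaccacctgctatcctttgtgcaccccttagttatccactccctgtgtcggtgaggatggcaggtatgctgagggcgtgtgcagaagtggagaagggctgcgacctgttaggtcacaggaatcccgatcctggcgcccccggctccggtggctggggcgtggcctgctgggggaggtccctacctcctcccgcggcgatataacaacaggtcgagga

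The distal Rbp4 window held the FOXA letters with the match starting 241 bases before the start site, and the other 3 windows held none of the 3 motifs searched on both strands. Over 27025 mouse promoters of this length, the share with the FOXA letters was 3.09%, with the SOX letters CATTGT 10.99% and with the GATA letters AGATAA 10.3%. Of the genes at least 2-fold higher in cluster 1, 300 had a promoter in the table, and 9 of them held the FOXA letters, 19 the SOX letters (6.33%) and 15 the GATA letters. Among the 7148 matched genes of the detection filter the shares were 2.17, 5.57 and 4.90%. A match is a description of the letters and not a bound site.

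In single cells too, the markers were detected most often in clusters 1 and 3. Every cell was thinned at random to 3000 UMIs so that depth was equal, which left out 448 cells of cluster 1 and 558 of the others. After thinning, Krt18 had a UMI in 94.8% of cluster 1 cells (93.8 to 95.7%) and in 94.8% of cluster 3 cells. Cluster 4, the highest for the somite list, gave 12.5% and is set beside cluster 1 below. Cluster 5, the highest for the fibroblast list, gave 6.78%. Called doublets were 3.14% of cluster 4, and their part in its shares was not tested. Sox17 was detected in 68.5% of cluster 1 cells (66.4 to 70.5%), 69.7% of cluster 3, 39.3% of cluster 6 and 3.30% of cluster 4. Trh was detected in 53.9% of cluster 1 cells and Rbp4 in 27.5%, against 3.63% and 1.49% in cluster 4, and the highest shares outside clusters 1 and 3 were 10.7% for Trh in cluster 2 and 8.26% for Rbp4 in cluster 5. The pioneer factor Foxa2 was detected in 22.0% of cluster 1 cells and 0.660% of cluster 4. Without thinning, at median depths of 7406 UMIs in cluster 1 and 7709 in cluster 4, the cluster 1 shares were 95.7% for Krt18, 77.1% for Sox17, 61.1% for Trh, 34.9% for Rbp4 and 40.1% for Foxa2, and those of cluster 4 were 21.3, 5.71, 7, 4 and 2.71%. At 3000 UMIs, at least 2 of the 4 markers were seen together in 85.5% of cluster 1 cells, 86.7% of cluster 3 cells, 6.54% of cluster 2 cells and 3.63% of cluster 4 cells.

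**Figure D1:**
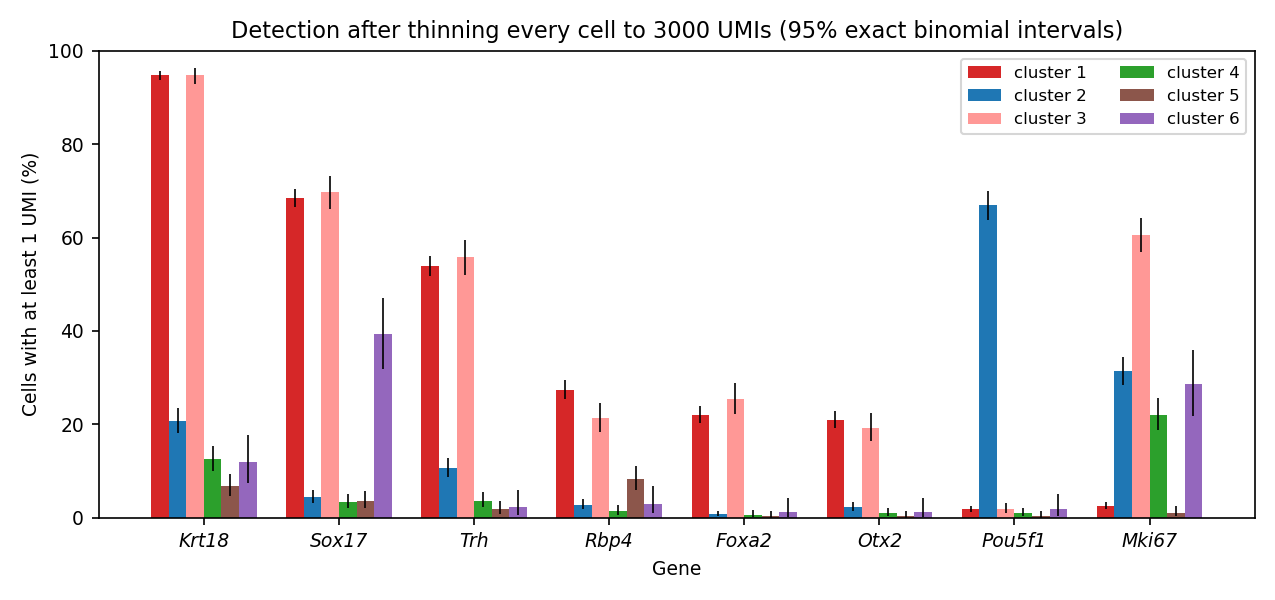
Share of cells with at least 1 UMI of each gene, in percent, after every cell was thinned to 3000 UMIs, with bars for the 6 clusters of the D6 library and error bars for 95% exact binomial intervals. Krt18, Sox17, Trh, Rbp4, Foxa2 and Otx2 are high in clusters 1 and 3, Pou5f1 in cluster 2, and Mki67 is at 2.58% in cluster 1 and 60.6% in cluster 3.

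Across the library, 9043 genes were detected in at least 10% of cells of either group. Of these, 401 were at least 2-fold higher in cluster 1 (4.43%) and 858 at least 2-fold lower (9.49%), and the median log2 ratio was -0.09. Through cluster 1 alone 245 genes passed, and 167 of the 401 were among them. Of the 8798 genes detected in at least 10% of the other cells, 234 were higher and 858 lower. The 4.43% given beside the lists below includes those 167 genes. Of the 20 genes with the highest ratio, 19 had their next highest level in cluster 3 and were less than 2-fold above it. They included the gastric protease precursor Pga5 (5.55-fold), the Nodal co-receptor Cfc1 (5.54-fold), Fgf5 (5.06-fold), the basement membrane adhesion protein Npnt (4.93-fold), Lhx1 (4.44-fold), the hedgehog ligand Ihh (4.34-fold), the membrane-bound carbonic anhydrase Car4 (4.25-fold), Krt8 (4.19-fold) and the pancreatic and gut endocrine factor Rfx6 (4.06-fold). The exception was Pomc, the precursor of pituitary peptide hormones, which had the highest ratio of the ranked genes, 8.98, at 118 CPM against 13.1 CPM. It was detected in 5.16% of cluster 1 cells and 6.12% of the others, so it did not pass the detection filter. It was carried by 84 cells described below, and without them the ratio was 0.452.

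Of the 20 genes of definitive and gut endoderm, 12 passed the detection filter. Of these, 11 were at least 2-fold higher in cluster 1 and none was lower, where 4.43 and 9.49% of all genes were. The summed level of the list was 3.40-fold higher (3.34 to 3.45). Of the 12, 5 were detected in 10% of cells in cluster 1 alone, Foxa3, Gata4, Lhx1 and Gsc among them, so that the filter left them no other direction, and 6 of the remaining 7 were higher. Sox17 and Trh belong to the list and made up 1449 CPM of its level in cluster 1. The other 18 genes summed to 753 against 251 CPM (2.995-fold, 2.91 to 3.08), and to 766 CPM in cluster 3. The transcription factors ran from Foxa3 at 47.2 against 7.24 CPM (6.51-fold) through Lhx1, Otx2 (3.94-fold), Gata4 (3.61-fold), Gsc (3.39-fold), Gata6 (3.23-fold) and Foxa2 (3.22-fold) to Foxa1 (3.09-fold). Prdm1, a repressor used in endoderm and in germ cells, stood at 21.2 against 23.5 CPM. The 8 members below the filter included Cer1, a secreted Nodal and WNT antagonist of anterior endoderm, at 2.59 CPM and Hnf4a at 2.75 CPM. Hhex, which marks anterior endoderm and endothelium, stood at 17.2 and 170 CPM in clusters 1 and 6. The summed list stood at 2201 and 2235 CPM in clusters 1 and 3, and between 90.4 and 465 CPM in clusters 2, 4, 5 and 6. Against cluster 3, none of the 13 members that passed the filter was 2-fold apart, close to the 3.86% of all genes that were.

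The epithelial list was measured in full, and 12 of its 15 members were at least 2-fold higher in cluster 1, where 4.43% of all genes were. Of the 12, 1 passed the filter through cluster 1 alone, and 11 of the 14 members also detected in the other cells were higher. The summed ratio was 3.27, and the marker Krt18 made up 2475 of the 6619 CPM in cluster 1. The 12 comprised the keratins Krt8, Krt18, Krt19 and Krt7, the adhesion molecules Epcam (1097 against 480 CPM) and Cdh1 (119 against 51.0 CPM), Cldn6, Cldn7, Ocln, the desmosomal protein Dsp, and the protease inhibitors Spint1 and Spint2. Cldn3, Cldn4 and the splicing factor Esrp1 were 1.42-fold, 1.65-fold and 1.59-fold higher. Without cluster 4 in the reference Epcam was 1.92-fold and Cdh1 1.96-fold higher. Pluripotent cells carry Epcam and Cdh1 as well, and cluster 2 stood at 426 CPM for Epcam and 61.0 CPM for Cdh1. On the mesenchymal side, Vim stood at 410 against 2216 CPM, and Twist1, Snai1, Zeb1 and Zeb2, repressors of the epithelial state, were also at least 2-fold lower. Without cluster 5 Vim stood at 0.629-fold. The mesenchymal cadherin Cdh2 stood at 116 against 58.2 CPM, a 1.99-fold difference. Among the 11 basement membrane genes, Col4a1 (2.03-fold), Lama5 (2.44-fold) and Agrn (2.22-fold) were higher, and Nid1 (0.0878-fold) and Col18a1 (0.264-fold) were lower, where 4.43 and 9.49% of all genes were.

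The serum proteins of visceral endoderm were low in cluster 1, and several were higher there than in the other cells. Ttr, the carrier of thyroid hormone and of Rbp4, stood at 18.3 against 3.09 CPM (5.92-fold, 4.73 to 7.45) and had a UMI in 7.29% of cluster 1 cells and 1.70% of the others. The apolipoprotein Apoa1 stood at 12.3 against 1.87 CPM (6.56-fold), Apob at 2.15 against 0.475 CPM (4.52-fold, 2.47 to 8.66), and Apoa4 at 0.770 CPM with 14 UMIs, against 2 UMIs in the other cells. Afp stood at 0.770 against 0.505 CPM, and the endocytic receptors Cubn and Amn at 0.165 and 1.93 CPM. These genes lay below the detection filter. Of the 15 genes of the visceral list 3 passed it. None of these was 2-fold higher and Rhox5 was lower (4.90 against 104 CPM), where 4.43 and 9.49% of all genes were. The summed level of the list, 2220 CPM against 2210 CPM, came almost entirely from Apoe, which stood at 2155 and 3565 CPM in clusters 1 and 2. The summed list of parietal endoderm was 1.24-fold higher and highest in cluster 5. Of its 10 members that passed the filter, Col4a1 (2.03-fold) and the proteoglycan Srgn (2.82-fold) were higher, Nid1 was lower and the other 7 were neither, with Sparc at 0.508-fold. Of the 2 higher genes, 1 passed the filter through cluster 1 alone. Among the 9 members also detected in the other cells 1 was higher and 1 lower, where 4.43 and 9.49% of all genes were. Thbd, below the filter, had 1 UMI in cluster 1.

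Genes of other tissues were counted in the same cells. Of the 7 genes of notochord and node analysed here, 4 passed the filter, of which Foxa2 is shared with the endoderm list. The BMP antagonist Chrd (3.08-fold) and the cilium genes Foxj1 (3.32-fold) and Pkd1l1 (5.02-fold) passed through cluster 1 alone, so their direction was set by the filter. Shh stood at 9.74 CPM. T, the notochord and streak factor, was at 16.0 CPM, almost wholly in the 84 cells that carried Pomc, and at 0.969 CPM without them. Of the 5 primitive streak genes that passed the filter, Eomes (2.09-fold), Gsc, Lhx1 and Sp5 (2.49-fold) were higher, where 4.43% of all genes were. Of these Sp5 alone also reached the filter in the other cells, so the filter set the direction of the rest. Gsc and Lhx1 belong to the endoderm list too. Without cluster 2 Sp5 was 1.94-fold higher, and Eomes was 1.74-fold higher without cluster 4 and 1.73-fold without cluster 5. Nodal (0.537-fold) was neither. Mixl1, below the filter, stood at 1.98 CPM. Of 10 pluripotency genes, 8 were at least 2-fold lower, where 9.49% of all genes were, among them Pou5f1 (6.22 against 169 CPM) and Nanog (2.31 against 119 CPM). Those counts rested on cluster 2, where Pou5f1 stood at 460 CPM, and against the remaining clusters without cluster 2 Pou5f1 was 1.49-fold higher in cluster 1. Lin28a, an RNA-binding protein of early embryonic cells, was 2.57-fold higher. The somite factor Meox1 stood at 4.18 and 187 CPM in clusters 1 and 4, and Foxc1 at 1.87 and 221 CPM. Pax9, which is used in pharyngeal endoderm as well as in sclerotome, was 3.78-fold higher, but passed the filter through cluster 1 alone, so its direction was set by the filter. Flt1, a VEGF receptor, stood at 703, 632 and 587 CPM in clusters 1, 3 and 6, while Tek and Emcn had no UMI in cluster 1, which allows 0.165 CPM, and Cdh5 stood at 0.605 CPM. All 8 fibroblast genes that passed the filter were lower, where 9.49% of all genes were. Col1a1 stood at 4.62 against 706 CPM, with 3858 CPM in cluster 5.

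**Figure D2:**
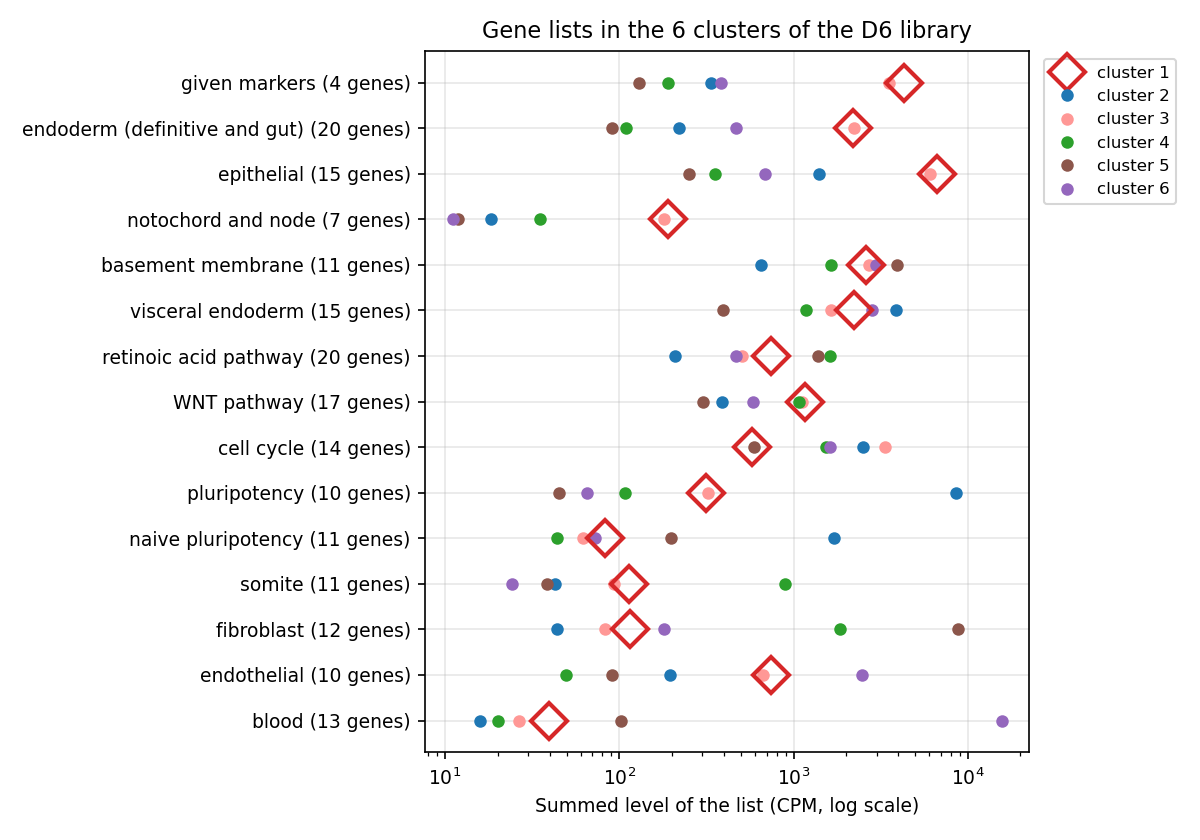
Summed level of 15 gene lists in CPM on a log axis, with an open diamond for cluster 1 and a dot for each other cluster of the D6 library. Clusters 1 and 3 lie close together for the endoderm, epithelial and notochord lists and part for the cell cycle list, at 581 and 3350 CPM.

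The WNT agonist and the BMP inhibitor were in the medium, so the genes of the signalling pathways were counted by role. WNT pathway genes went both ways, and of 16 measured members 4 were higher and 3 lower, where 4.43 and 9.49% of all genes were. The filter was passed through cluster 1 alone by 3 members, among them 2 of the 4 higher. Of the 13 also detected in the other cells 2 were higher and 3 lower. Dkk1, a secreted WNT antagonist, was at 483 against 123 CPM (3.93-fold), the target factor Sp5 at 289 against 116 CPM, and Lgr5 (3.08-fold) and Rnf43 (2.92-fold), a receptor for R-spondins and a ligase that removes Frizzled, were higher as well. Lef1 (0.121-fold), Rspo3 (0.472-fold) and Notum (0.189-fold) were lower. Without cluster 4 in the reference Notum stood at 0.719-fold, and without cluster 6 Rspo3 at 1.22-fold. Most Rspo3 UMIs of cluster 1 lay in the 84 cells that carried Pomc, and without those cells it stood at 4.39 CPM, 0.125-fold. Without cluster 2 Sp5 was 1.94-fold higher. The general target Axin2 stood at 30.6 against 42.1 CPM. In the BMP pathway the ligand Bmp2 was at 156 against 55.3 CPM (2.82-fold) and the target Id3 at 246 against 103 CPM (2.39-fold), which without cluster 2 were 1.86-fold and 1.84-fold higher. Bmp4 stood at 0.464-fold, with its highest level, 117 CPM, in cluster 4, and without that cluster it was 2.13-fold higher in cluster 1. Id1 and Id2 stood at 0.909-fold and 1.04-fold. Of 9 measured members of the Nodal pathway 1 was higher and 2 lower, where 4.43 and 9.49% of all genes were. The higher one, the co-receptor Cfc1, passed the filter through cluster 1 alone, so its direction was set by the filter. Its relative Tdgf1 (0.107-fold) and the ligand Gdf3, with 1 UMI in cluster 1 and 34.8 CPM in the other cells, were lower. Without cluster 2 Tdgf1 was 3.501-fold higher. Nodal itself stood at 11.4 against 21.2 CPM. Of the 3 hedgehog members that passed the filter Ihh alone was past 2-fold, where 13.9% of all genes were in either direction. The hedgehog target Ptch1 stood at 60.4 against 77.4 CPM. Gli1, another target, stood at 0.330 and 24.2 CPM in clusters 1 and 4. Of 10 measured members of the FGF pathway Fgf5 (5.06-fold) and the receptor Fgfr2 (2.08-fold) were higher and Fgf4 (0.0132-fold) was lower. Over all genes 4.43 and 9.49% were, so the share that was lower was close to that of all genes. Both Fgf5 and Fgfr2 passed the filter through cluster 1 alone, so their direction was set by the filter. None of the 8 members also detected in the other cells was higher. Without cluster 2 Fgf4 stood at 1.18-fold and Fgfr2 at 1.54-fold.

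Retinoic acid genes were counted from carrier to receptor. Of 13 measured members, Rbp4 and the receptor and target gene Rarb (35.7 against 13.3 CPM, 2.68-fold) were higher and 6 were lower, where 4.43 and 9.49% of all genes were. The 6 were the retinol dehydrogenase Rdh10 (7.43 against 37.9 CPM), the synthesizing enzyme Aldh1a2 (1.49 against 42.6 CPM), Dhrs3, which reduces retinal, the binding proteins Crabp1 and Crabp2, and the receptor Rarg. Of these calls 3 rested on 1 cluster: without cluster 4 Aldh1a2 stood at 0.513-fold and Rdh10 at 0.855-fold, and without cluster 5 Dhrs3 at 0.551-fold. Without cluster 2 Rarb was 1.91-fold higher. Cluster 4 had Aldh1a2 at 223 CPM, Rdh10 at 170 CPM and the retinol importer Stra6 at 403 CPM, where cluster 1 had 52.4 CPM for Stra6. Aldh1a1 and Aldh1a3 stood at 0.330 and 0.0550 CPM in cluster 1, and Lrat had no UMI. The degrading enzyme Cyp26a1 stood at 35.9 against 6.77 CPM, below the detection filter, and most of it lay in 1 part of the cluster described below. The receptor Rara stood at 39.7 against 32.1 CPM. Summed over the list, cluster 1 stood at 740 CPM and the other cells at 750 CPM.

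Cluster 3 was the most similar cluster, with a Spearman rho of 0.939 across 9043 genes, which are not independent, against 0.809, 0.805, 0.722 and 0.674 for clusters 4, 6, 2 and 5. Against cluster 3, 8422 genes passed the filter, 18 were at least 2-fold higher in cluster 1 (0.214%) and 307 lower (3.65%), 3.86% in all. Of the 14 cell cycle genes 7 were lower in cluster 1: Mki67 at 10.8 against 445 CPM, Top2a at 22.7 against 762 CPM, Cenpf at 20.6 against 945 CPM, Ccnb1, Cdk1, Ccna2 and Pcna. These genes act in S phase and mitosis. The helicase subunits Mcm2 (0.889-fold), Mcm5 and Mcm6 (0.864-fold) and the cyclins Ccnd1, Ccnd3 and Ccne1 were not 2-fold apart. Against all other cells Mcm5 was among the genes at least 2-fold lower. Ccnd2, a G1 cyclin, was the 1 member higher than in cluster 3, at 86.0 against 38.5 CPM, but stood at 0.818-fold of all other cells. Also higher than in cluster 3 were Gadd45b (3.11-fold), Neat1 (2.54-fold), Ascl2 (2.45-fold) and Tcf15 (2.09-fold). Gadd45b and Neat1 were named after their values were seen. Cluster 3 had the greater depth, with a median of 9477 UMIs per cell, and the part of depth in these differences was not tested. Of 10 p53 targets and CDK inhibitors that passed the filter against cluster 3 none was 2-fold apart, close to the 3.86% of all genes. Against all other cells 7 of 13 were lower in cluster 1, where 9.49% of all genes were. Cdkn2a stood at 8.31 CPM, against 751 CPM in cluster 5.

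Clustering the cells of cluster 1 alone gave 5 parts, which are described with no test since the same genes formed them. Part 1 had 866 cells (34.1%), part 2 had 787 (31.0%), part 3 had 457 (18.0%), part 4 had 345 (13.6%) and part 5 had 84 (3.31%). Sox17 stood at 479, 602, 530 and 516 CPM in parts 1 to 4 and at 37.0 CPM in part 5. Foxa2 stood at 98.7, 84.0, 76.1 and 87.1 CPM in parts 1 to 4 and at 4.82 CPM in part 5. Parts 1 to 4 thus carried these factors at similar levels and part 5 did not.

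Part 1 was led by Ptn, Fbn2, Dlk1, Gm15050, Tcf15, Frem1, Fst, Vtn, Halr1 and Thbs1. Several of these were marks of cluster 4, where Ptn stood at 1212 CPM, Fbn2 at 537 CPM and Dlk1 at 673 CPM, and all 6 called doublets of cluster 1 lay in part 1, whose share in these levels was not tested. Frem1, an extracellular matrix protein, stood at 164 CPM and 33.4 CPM in the rest of the cluster, and the adhesive glycoprotein Vtn at 281 and 64.7 CPM. This part also had the lowest Epcam of parts 1 to 4, at 337 CPM, Cdh1 at 24.2 CPM, and Vim at 556 CPM.

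Part 2 held most of the Rbp4 of the cluster, at 775 CPM against 119 CPM in the rest. Its other leading genes were Ly6h, Igf1, Cldn3, Epcam (2036 against 538 CPM), Bcam, Cldn4, Clu, Rab25 and Cldn7 (312 against 101 CPM). Epcam and the claudins are components of epithelial junctions, and the summed epithelial list stood at 3152, 8800, 7434, 9497 and 2363 CPM in parts 1 to 5, highest in part 4. Krt19 was low in part 1 alone, at 56.3 CPM, and stood between 299 and 497 CPM in parts 2 to 5. The summed retinoic acid list stood at 1202 CPM in part 2 and between 346 and 493 CPM in the other parts, and Rbp4 itself made up 775 of the 1202 CPM. Ttr stood at 37.0 CPM in part 2 and at most at 11.01 CPM in the others.

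Part 4 was led by Lefty1, Pga5, Fgf8, Fgf5, Sfrp5, Eomes, Pdgfra, Cyp26a1, Sgk1 and Cfc1. Pga5 stood at 1613 CPM against 59.1 CPM in the rest of the cluster, Fgf5 at 357 against 19.6 CPM, the streak factor Eomes at 137 against 9.24 CPM and Cyp26a1 at 150 against 11.2 CPM. The head and anterior endoderm factor Otx2 stood at 350 CPM in part 4 and at 26.8, 103 and 105 CPM in parts 1, 2 and 3, and Hhex at 68.9 CPM and at 2.64, 6.49 and 23.8 CPM. The WNT antagonists Dkk1 and Sfrp1 stood at 841 and 137 CPM in part 4, and the summed endoderm list at 3514 CPM against 2031 and 2014 CPM in parts 1 and 2.

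The cells of cluster 3, which took no part in this division, showed pairs of these genes together. At 3000 UMIs, Otx2 and Pga5 were both detected in 6.06% of 693 cells (4.40 to 8.10%), where independent detection would give 2.57%, and Otx2 and Fgf5 in 4.62% (3.18 to 6.46%) against 1.95%. Pga5 and Frem1 were both detected in 0.433% (0.0894 to 1.26%) against 1.92%, and Otx2 and Frem1 in 1.44% (0.694 to 2.64%) against 2.79%. The Rbp4 and Epcam pair was at 18.8% (15.9 to 21.9%) against 15.7%.

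Part 3 was shallow, with a median of 1941 UMIs and 1061 genes per cell and a mitochondrial share of 0.117%, and was left without a name. It was led by the embryonic globin Hba-x (58.7 against 4.21 CPM), the histone Hist1h1b and CT010467.1, and also Mt2, Tagln, Mlf1, Gm8186, Mir6236, Nt5c and Dppa5a. Several of these are marks of other clusters, as Hba-x was of cluster 6 and Dppa5a of cluster 2, where it stood at 6302 CPM. Krt18 was at 3620 CPM in these cells, and the summed basement membrane list at 463 CPM where parts 1, 2 and 4 stood between 1814 and 3677 CPM. Without part 3 the genes at least 2-fold higher in cluster 1 numbered 447.

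Part 5 departed from the label. Its 84 cells had a median of 7028.5 UMIs, no called doublet and a summed level of the 4 markers of 966 CPM, where the other parts stood between 3066 and 6090 CPM. They were led by Ptgds (1672 against 1.31 CPM in the rest of cluster 1), Pomc (3274 against 5.93 CPM), T (439 against 0.969 CPM) and the tendon and sclerotome factor Scx (617 against 5.87 CPM), and by Lgals3, Rspo3, Acta2, Spp1, Prrx1 and Hspb1. The mesodermal factor Mesp1 stood at 54.7 CPM, Lef1 at 62.7 CPM and Cdkn1c at 1681 CPM, and Vim at 1615 CPM. Frem1 had no UMI, which allows 4.82 CPM. These cells were named by their leading genes alone. They held 95.1% of the Pomc UMIs and 78.9% of the Scx UMIs of cluster 1. Without them Pomc stood at 5.93 CPM and Scx at 5.87 CPM, which were 0.452-fold and 0.325-fold of the other cells, and Sox17 was 3.69-fold higher.

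**Figure D3:**
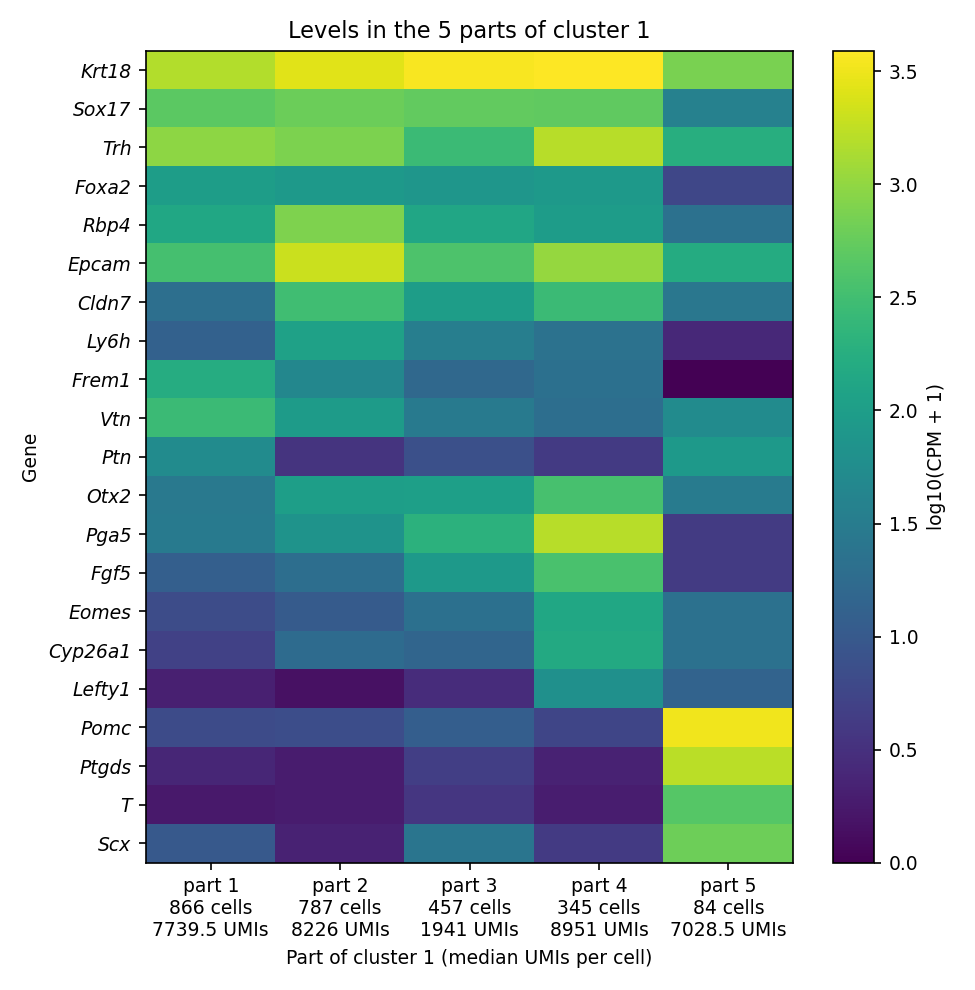
Level of 21 genes in the 5 parts of cluster 1 as log10(CPM + 1), with the number of cells and the median UMIs of each part under the columns. Krt18 runs from 731 CPM in part 5 to 3890 CPM in part 4, Rbp4 and Epcam peak in part 2, Frem1 and Vtn in part 1, Otx2, Pga5 and Fgf5 in part 4, and Pomc, Ptgds, T and Scx in part 5.

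The leading genes of cluster 1 were then read in the other libraries, which the D6 clusters had not used. In the D10 culture, 14 of the 20 leading genes had their highest level in its cluster 8, a group of 155 cells (1.98% of that library), where 11.7% of 9042 genes of the detection filter did so. Of the 400 genes at least 2-fold higher in D6 cluster 1 that were in that file, 225 (56.3%) were highest there. Krt18 stood at 3687 CPM in these D10 cells, Krt8 at 2914 CPM, Rbp4 at 1844 CPM, Pga5 at 4203 CPM and Foxa2 at 88.8 CPM, and for each of them the next D10 cluster was lower. Sox17 stood at 73.2 CPM and Trh at 45.8 CPM, where D6 cluster 1 had 519 and 929 CPM, and the serum proteins Ttr and Afp stood at 447 and 1193 CPM. Some of the 14 rested on few UMIs, such as Ihh with 4 (3.90 CPM), Erich2 with 9 and Adcy8 with 11. These cells fell in a cluster of the tail and D10 cells together that the study annotated as skin, and the deposited codes of these libraries start at 1 where the study counted its clusters from 0. In the tail cells of that cluster Krt18 stood at 107 CPM and Rbp4 at 0.574 CPM. The highest D10 level of Trh, 513 CPM, was in cluster 5 of that library, which also had Pou5f1 at 351 CPM. Day, medium and library cannot be told apart between these values. In the tail library, where no cluster of at least 50 cells had a UMI of Trh or Otx2, the 4 markers summed to at most 229 CPM in a cluster, in one where Sox17 gave 228 CPM and Hhex 149 CPM.

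**Figure D4:**
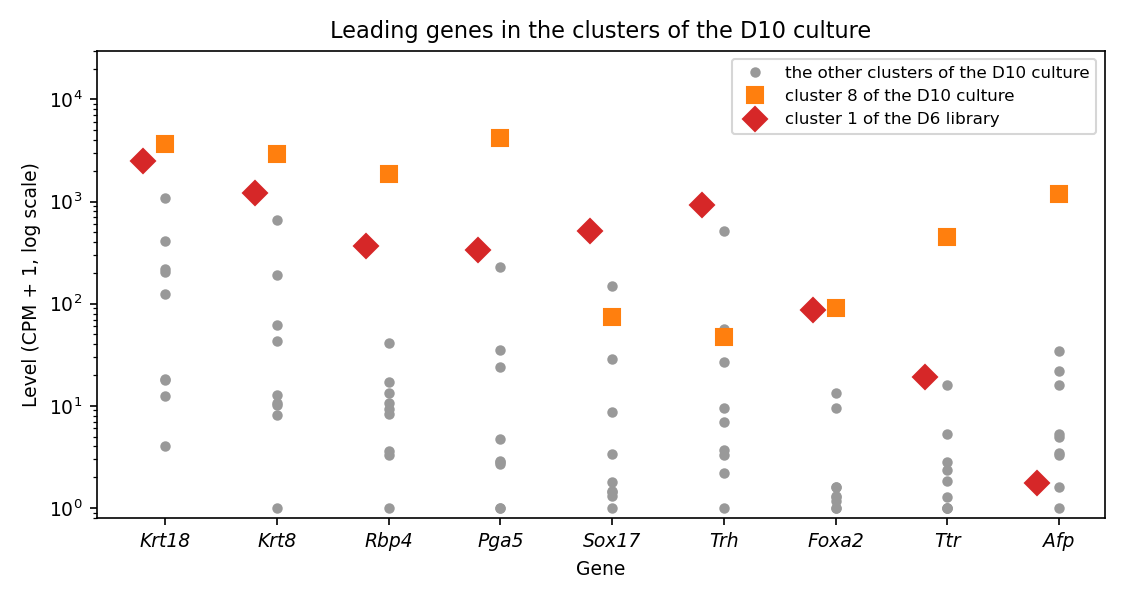
Level of 9 genes as CPM + 1 on a log axis in cluster 1 of the D6 library (diamonds), cluster 8 of the D10 culture (squares) and the other D10 clusters of at least 50 cells (dots). Cluster 8 is the highest D10 cluster for Krt18, Krt8, Rbp4, Pga5, Foxa2, Ttr and Afp and not for Sox17 or Trh.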

How the data were processed

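Single-cell RNA-seq counts were analysed as deposited, UMI counts per gene and cell with a cluster code for each cell. Per the methods and the submitters' processing notes, the authors counted with Cell Ranger, ignored reads that mapped to several places, and clustered with Seurat 3.0 after leaving out cells above 7.5% mitochondrial transcripts and those in the outer 2% quantiles. The genome build of the counts and the correspondence of the 6 codes to the study's cell types are not given in the sources used here. The members and the 35 gene lists were chosen with earlier results of these data known.

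UMIs were summed per cluster and given as CPM. Genes detected in at least 10% of cells of either group were counted as higher or lower at a 2-fold difference. The genes named first were the 20 with the highest ratio among 4315 that had 100 UMIs or more in all and reached 50 CPM in cluster 1 or the rest, followed by list members. Intervals are 95%, exact binomial (Clopper-Pearson) for shares and conditional binomial for ratios, and 3 counts were the floor for a count of 0. PCR duplicates were collapsed by UMI, but intervals cover counting error only. Detection shares used cells thinned to 3000 UMIs (seed 1). Cluster 1 was divided with the Leiden method on 2000 variable genes, 30 components and 15 neighbours at resolution 0.3, and parts were named by their 10 leading genes. Doublets were called with Scrublet at an assumed rate of 6% and kept. Promoters were 250 bases from RefSeq, GRCm38.p6. The alternatives were other references, scalings, filters, thinning depths and resolutions. Tools were Python 3.11.15, numpy 2.4.6, scipy 1.17.1, pandas 2.3.3, scanpy 1.11.5, leidenalg 0.10.2, scikit-learn 1.9.0 and matplotlib 3.10.9. The scripts were tested on simulated data.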

Additional observations from a re-analysis of the deposited data

How the results depend on the processing

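No paired analysis was possible because each group was 1 library. The choice of reference moved the ratios most. The 4 markers, 4.28-fold higher in the main comparison, were 3.11-fold higher without cluster 2 in the reference, 16.5-fold without cluster 3, 3.63-fold without cluster 4, 3.62-fold without cluster 5, 4.13-fold without cluster 6 and 4.69-fold with clusters weighted equally. The endoderm list, 3.40-fold higher, stood in the same order at 2.47, 12.02, 2.87, 2.87, 3.34 and 3.53. Other scalings gave 4.09 and 3.27 (mean of cells), 4.57 and 3.62 (median ratio) and 4.43 and 3.51 (no mitochondrial or ribosomal genes), and leaving out called doublets gave 4.42 for the markers. Alternatives chosen after seeing the data gave 4.40 and 3.49 without the cells led by Ptgds and Pomc, 3.47 for the endoderm list without the shallow part, and 2.995 for that list without Sox17 and Trh. Neither direction changed. Without the detection filter 2785 genes were higher and 4704 lower, and with a filter at 25% of cells 179 and 308. Sox17 was detected in 55.4% of cluster 1 cells at 2000 UMIs and 79.3% at 5000. A resolution of 0.15 gave 3 parts, of which 1 matched part 3 (Jaccard index 0.976), while parts 1, 2, 4 and 5 merged with others (0.423, 0.380, 0.168 and 0.0265). At 0.6 there were 7 parts, and part 5 stood at 0.550.

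Some calls rested on 1 cluster. Without cluster 2, 12 of the named genes called higher fell below 2-fold, to between 1.37 and 1.94: Agrn, Bmp2, Col4a1, Fgfr2, Grb10, Halr1, Id3, Mlf1, Pax3, Peg3, Rarb and Sp5. Without cluster 4, Cdh1, Col4a1, Eomes, Epcam, Mlf1, Slc2a3 and Spint1 did (1.74 to 1.97), and without cluster 5, Cdh1, Eomes, Epcam, Fgfr2, Grb10, Halr1, Mlf1, Peg10, Slc2a3 and Spint1 (1.73 to 1.99). Without cluster 6, Fgfr2 stood at 1.996. The mean of cells put Col4a1 at 1.87 and Fgfr2 at 1.81, equal weights put Col4a1 at 1.70 and Grb10 at 1.98, and Mlf1 stood at 1.93 without the shallow part. Among lower values, without cluster 2 the pluripotency list stood at 1.92-fold, the surface ectoderm list at 1.31, Fgf4 at 1.18, Nanog at 1.014, Pou5f1 at 1.49, Tdgf1 at 3.501, Asns at 1.29 and Sox2 at 1.81. Without cluster 4, Bmp4 stood at 2.13, Dlk1 at 2.53, Fbn2 at 1.81, Meox1 at 2.82 and Ptn at 2.64. Without cluster 5, Lgals3 stood at 1.24, carried by the cells led by Ptgds and Pomc, and Neat1 at 1.18, and without cluster 6 the blood list at 1.12, Hba-x at 2.02 and Rspo3 at 1.22. Calls of lower levels that kept their direction but not 2-fold were Dppa5a (0.962), Tfap2c (0.592) and Rhox5 (0.737) without cluster 2, Aldh1a2 (0.513), Foxc1 (0.501), Notum (0.719), Rdh10 (0.855) and Rspo3 (0.510) without cluster 4, and Ddit3 (0.722), Dhrs3 (0.551), Egln3 (0.517) and Vim (0.629) without cluster 5. Asns stood at 0.530 by the mean of cells and 0.597 with equal weights, Neat1 and Rspo3 at 0.514 and 0.504 by the median ratio, and Neat1 at 0.506 without the shallow part. Pomc and T fell to 0.452 and 0.185 without the cells led by Ptgds and Pomc.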

Other observations

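Other gene groups of cluster 1 were counted in the same way. Of 15 imprinted genes that passed the detection filter 3 were at least 2-fold higher and 4 lower, where 4.43 and 9.49% of all genes were. The higher ones were the transcription factor Peg3 (776 against 320 CPM), the growth factor receptor adaptor Grb10 (604 against 283 CPM) and the retrotransposon-derived Peg10 (186 against 79.6 CPM). The 4 that were lower included Mest (30.5 against 212 CPM) and the long noncoding RNA Meg3 (7.10 against 226 CPM), whose highest levels were 878 CPM in cluster 4 for Mest and 1185 CPM in cluster 5 for Meg3. Of the 4 trophoblast genes that passed, Ascl2 (4.03-fold), Eomes and Krt7 were higher and Tfap2c (0.770 against 40.8 CPM) was lower, where 4.43 and 9.49% of all genes were. Through cluster 1 alone 2 of the 4 passed, both higher, so the filter set their direction. The remaining 2 split, 1 higher and 1 lower. The trophoblast factors Cdx2, Elf5 and Hand1 stood at 0.275, 0.110 and 0.110 CPM, against a floor of 0.165 CPM. Of 20 genes of glycolysis and hypoxia, the glucose transporter Slc2a3 was higher and the hypoxia targets Adm (8.20 against 50.1 CPM) and Egln3 (34.0 against 98.3 CPM) were lower, shares close to the 4.43 and 9.49% of all genes. Of the 8 stress and immediate early genes none was 2-fold higher and 2 were lower, where 9.49% of all genes were. They were Ddit3, which stood at 0.722-fold without cluster 5, and Asns, which stood at 1.29-fold without cluster 2. The neural and pluripotency factor Sox2 stood at 9.74 CPM, with 496 CPM in cluster 2, and the muscle and neural crest factor Pax3 at 38.0 against 15.3 CPM. Pax3 passed the filter through cluster 1 alone, so its direction was set by the filter.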
